A study of Mus musculus with 12 samples.

Results

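The mRNA levels of 9 genes that encode inhibitory and costimulatory receptors of T cells were followed in thymic *i*NKT cells with and without forced miR-155 expression. The genes were *Pdcd1*, *Ctla4*, *Lag3*, *Tigit*, *Btla*, *Cd160* and *Havcr2*, which encode inhibitory receptors, *Cd28*, which encodes a costimulatory receptor, and *Cd200*. The product of *Cd200* is a ligand of CD200R, an inhibitory receptor. The genes were chosen by symbol, and all 9 were found among the 48709 rows of the count table. *i*NKT cells are T cells with an invariant TCR that recognizes lipids presented by CD1d, and they were sorted from the thymus by flow cytometry and profiled by RNA-seq.

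The 12 libraries made 4 groups of 3, a NK1.1- and a NK1.1+ group for each of the genotypes WT and miR-155KI. All mice were C57BL/6J and 7 weeks old. NK1.1- cells are stages 1 and 2 of development and NK1.1+ cells are stage 3. The paper describes stage 2 as holding differentiated *i*NKT2 and *i*NKT17 cells and immature *i*NKT1 cells, and stage 3 as largely mature *i*NKT1 cells. The pools thus differ in functional subset as well as in maturity. The miR-155KI mice had the miR-155 allele in the Rosa26 locus on both chromosomes and the CD4Cre transgene, and the mice called WT were littermates that carried the knock-in allele without CD4Cre. CD4Cre acts in all T cells that pass through a stage with CD4, so *i*NKT cells were not the only cells with the transgene switched on. The thymocytes had been depleted of CD8+ cells and were then sorted by their staining for CD44, NK1.1, TCRβ and the CD1d tetramer. The study's methods state that biological replicates were pooled for RNA-seq, and the labels do not tie a library to single mice. The p-values therefore cover only the spread among libraries, and how much of it is technical is not known. In WT, replicate 1 differed from replicates 2 and 3 of both pools in sex-linked RNA, given below. The questions that the design sets are whether miR-155 changed these genes in the NK1.1- or in the NK1.1+ pool, and how the pools differ within each genotype.

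T cells respond to antigen when the TCR signal is joined by CD28, which binds CD80 and CD86 on the presenting cell. CTLA-4 binds the same ligands more tightly and takes them away from CD28. PD-1, encoded by *Pdcd1*, BTLA, TIGIT, LAG-3 and TIM-3, encoded by *Havcr2*, are induced by activation and dampen the signal, in part through phosphatases that the receptor tails recruit. In thymic *i*NKT cells the TCR signal is strong during selection, and the cells then mature from NK1.1- to NK1.1+ cells.

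miR-155 pairs with mRNAs through its seed, so the mature miRNA and the seed matches in these genes are shown first. The mature sequence, from RefSeq on build GRCm38.p6 (chr16:84714143-84714165, plus strand), has its seed at bases 2 to 8 in capitals:
miR-155-5p: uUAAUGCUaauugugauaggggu
The 7-base match to this seed, AGCATTA, was searched on the mRNA strand of each annotated 3′ UTR in GENCODE M21 (GRCm38). Of the 9 genes, 2 held it, *Ctla4* and *Btla*. The matches are shown in capitals with their flanks, because both genes passed the test in the miR-155KI comparison and in opposite directions:
Ctla4: gaagcagcataaggatatAGCATTAtggt
Btla: ctcaaataaatttgttccAGCATTAtttt
The window in *Ctla4* lies at chr1:60914961-60914989 on the plus strand, and the match starts 262 bases after the stop codon in a 3′ UTR of 1115 bases (the longer of both annotated forms, the other, of 89 bases, holds none). The window in *Btla* lies at chr16:45252851-45252879 on the plus strand. Its match starts 2272 bases after the stop codon in a 3′ UTR of 2295 bases (the longer annotated form). The other annotated *Btla* 3′ UTR, of 661 bases, holds no match. None of the 9 genes held the 8-base match AGCATTAA, which includes the 7-base match. For comparison, 8.82% of the 21037 genes with an annotated 3′ UTR held the 7-base match (1855 genes) and 3.19% held the 8-base match (672 genes).

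The 9 genes lie on 5 chromosomes in GRCm38. *Cd28* and *Ctla4* are neighbours on chromosome 1, 113.64 kb apart on the plus strand, and *Pdcd1* lies on the same chromosome. *Btla* and *Cd200* lie 124.464 kb apart on chromosome 16 on opposite strands, and *Tigit* lies on the same chromosome. *Lag3* is on chromosome 6, *Cd160* on chromosome 3 and *Havcr2* on chromosome 11. *Cd160* shares 68 exonic bases with *Pdzk1* on the other strand, and the SMART-Seq kit named in the labels does not mark strand, so reads from those bases cannot be assigned to either gene.

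The libraries held between 12819476 and 20518257 counts. The labels were first checked against genes they predict. *Mir155hg*, the host gene of miR-155, was at 131 to 144 CPM (counts relative to library size, scaled by TMM over all 12 libraries) in miR-155KI NK1.1- libraries against 9.64 to 13.7 in WT, and at 95.1 to 128 in miR-155KI NK1.1+ libraries against 11.1 to 12.1 in WT. *Klrb1c*, which encodes NK1.1, was at 358 to 773 CPM in the 6 NK1.1+ libraries and at 36.6 to 79.8 in the 6 NK1.1- libraries. The *i*NKT lineage markers were detected in every group, and their summed level was between 2675 and 4755 CPM. All 8 *i*NKT1 markers were higher and all 8 *i*NKT2 markers lower in NK1.1+ than in NK1.1- cells of both genotypes, each with an adjusted p under 0.05. Within the NK1.1- pool, all 8 *i*NKT17 markers and 5 of 8 *i*NKT1 markers were lower and 3 of 8 *i*NKT2 markers higher in miR-155KI than in WT cells. The 12 libraries are bulk samples, so a change in the mix of these cell types and a change of mRNA per cell cannot be told apart in any result that follows.

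Some libraries stand apart from their group. Replicate 1 of both WT groups had Y-linked RNA at 154 and 205 summed CPM and *Xist* at 12.5 and 11.4 CPM, and the 6 miR-155KI libraries had *Xist* at 8.18 to 34.9 CPM and Y-linked RNA at 171 to 251 CPM, whereas WT replicates 2 and 3 had *Xist* at 135 to 237 CPM and Y-linked RNA at 11.6 to 20.1 CPM. The study's methods describe the mice as matched for sex, and the labels give none. Myeloid RNA was higher in the whole miR-155KI NK1.1+ group: the summed level of the 15 myeloid and dendritic markers was 591 to 1393 CPM there and 166 to 402 CPM in the other 9 libraries. Replicate 2 of that group stood highest, with *Csf1r* at 33.0 CPM against 0.46 to 6.17 in the other 11 libraries. The miR-155KI NK1.1+ replicate 1 held *Dntt* at 107 CPM against 0.78 to 6.43 elsewhere, *Foxp3* at 5.03 CPM against 0.06 to 0.91, and a summed level of the 10 double-positive thymocyte markers of 332 CPM against 45.1 to 128. WT NK1.1- replicate 1 held *Igkc* at 637 CPM, and its summed B cell markers were at 935 CPM against 113 to 349 elsewhere. The summed markers of γδ T cells, of NK cells and ILC and of regulatory T cells did not overlap between genotypes in the NK1.1- pool. They are given with its results. These libraries were kept, and for some of the results values without them are given as well.

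**Figure D1:**
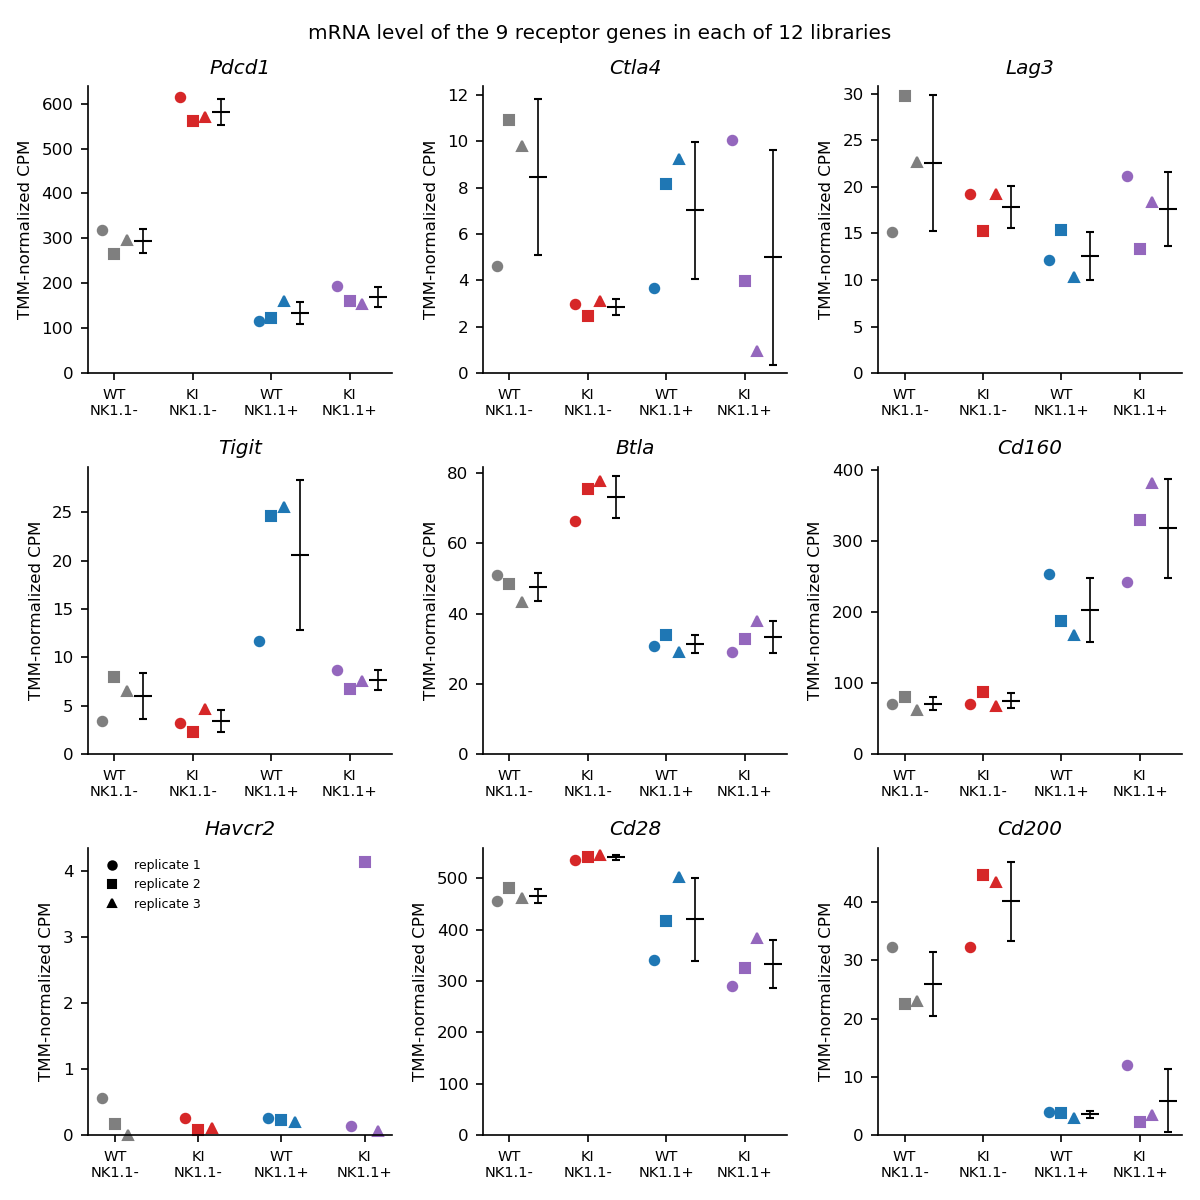
TMM-normalized CPM (vertical axes, linear) of the 9 genes in each of the 12 libraries, by group (horizontal axes; KI is miR-155KI); point shapes are replicates, and the black bar beside each group is the mean ± SD of 3 libraries, left out for Havcr2. Pdcd1 and Btla stood highest in miR-155KI NK1.1- cells, Cd160 and Tigit in NK1.1+ cells, and a single library held Havcr2 above 1 CPM.

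Levels of different genes were compared per kilobase of exon. In WT NK1.1- cells *Pdcd1* had the highest level, 152 ± 14.0 CPM per kb (SD, n = 3), followed by *Cd28* at 76.2 ± 2.24 and *Cd160* at 26.9 ± 3.42. *Btla* followed at 14.0 ± 1.18 CPM per kb. The ranges of *Btla*, *Lag3*, *Cd200*, *Tigit* and *Ctla4* overlapped from each gene to the next in this order, so their ranks are not resolved, and *Havcr2* came last at 0.0893 ± 0.105. In miR-155KI NK1.1- cells the order was *Pdcd1*, *Cd28*, *Cd160*, *Btla*, *Cd200*, *Lag3*, *Tigit*, *Ctla4* and *Havcr2*, with no overlap between neighbours, and *Pdcd1* was at 301 ± 14.9 CPM per kb. In NK1.1+ cells *Cd160* took the first place, at 76.9 ± 17.2 CPM per kb in WT and 120 ± 26.5 in miR-155KI cells. Its range overlapped that of *Pdcd1* in both genotypes, and in WT cells *Pdcd1*, at 69.1 ± 12.6, also overlapped *Cd28*, at 68.7 ± 13.2. *Pdcd1*, *Cd28* and *Cd160* held the first 3 places in every group, and *Havcr2* had the lowest mean, although its range overlapped that of *Cd200* in miR-155KI NK1.1+ cells.

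miR-155 expression in NK1.1- cells went with higher *Pdcd1* and *Btla* and lower *Ctla4* mRNA. Of the 9 genes 8 passed the filter on low counts, and 3 of these passed the threshold of 0.05 on the adjusted p (edgeR's quasi-likelihood test, Benjamini-Hochberg over all genes), 2 higher and 1 lower. Over all 13304 genes tested, 3.44% passed (457 genes), 1.93% higher and 1.5% lower, and 5 of the 8 genes had an unadjusted p under 0.05, where 18.5% of all genes tested did. The median log2 fold change of the 8 genes was 0.13, and that of all genes tested was 0.00. The summed levels of some marker lists of other cell types also lay apart in this comparison. The summed γδ T cell markers were at 770 to 1023 CPM in miR-155KI and 430 to 683 CPM in WT NK1.1- libraries (2 of 5 markers tested passed, both higher). This sum was nearly all RNA of the γ chain genes *Tcrg-C1*, *Tcrg-C2*, *Tcrg-C4* and *Trgv2*. The δ chain gene *Trdc* overlapped between genotypes, at 1.29, 1.13 and 0.59 CPM in miR-155KI and 1.95, 0.80 and 0.56 CPM in WT libraries. The summed NK cell and ILC markers were at 45.7 to 56.3 CPM in miR-155KI and 63.2 to 110 CPM in WT libraries (none of 4 passed). Neither sum overlapped between genotypes. Most of the NK cell and ILC sum was *Gzmb*, at 37.4, 47.1 and 39.9 CPM in miR-155KI and 58.1, 98.8 and 57.6 CPM in WT libraries. *Itga2* went the other way, at 7.10, 6.76 and 6.79 CPM against 4.11, 6.28 and 3.51 CPM. Of the 4 tested, 3 had a value below 0 and 1 above. The summed regulatory T cell markers without *Ctla4* did not overlap either, at 1488 to 1775 CPM in miR-155KI and 1291 to 1364 CPM in WT libraries. Of the 8 tested, 4 had a value above 0 and 4 below, and 1 passed, higher. Among them *Izumo1r* was at 1005, 1054 and 844 CPM in miR-155KI and 632, 619 and 595 CPM in WT libraries. *Foxp3* overlapped, at 0.57, 0.38 and 0.91 CPM against 0.35, 0.23 and 0.39 CPM. Of the double-positive thymocyte markers 2 of 8 passed, both lower. The part of these cells in the receptor results was not tested.

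*Pdcd1* encodes PD-1, which recruits the phosphatase SHP-2 to the engaged TCR and CD28. Its level was 319, 265 and 297 CPM in the WT NK1.1- libraries (replicates 1, 2 and 3) and 614, 560 and 570 CPM in the miR-155KI NK1.1- libraries. All miR-155KI libraries were above all WT libraries, and the lowest of them was well above the highest WT library. The log2 fold change was 0.97 (SE 0.10, edgeR adjusted p = 2.2e-04), a 1.96-fold rise. *Pdcd1* kept its call in all 15 alternative analyses, with log2 fold changes from 0.86 to 1.03 and a highest adjusted p of 0.018. The lowest values came with the sex-linked RNA as a covariate (0.86) and with replicate 1 as the sole WT library (0.87).

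*Btla* encodes a receptor for HVEM on neighbouring cells. It was at 51.1, 48.4 and 43.2 CPM in WT NK1.1- libraries and at 66.4, 75.3 and 77.8 CPM in the miR-155KI NK1.1- libraries. The groups did not overlap, and the rise was 1.52-fold, a log2 fold change of 0.60 (SE 0.12, edgeR adjusted p = 0.0162). The call rests on most of the libraries: without WT NK1.1- replicate 2 or 3 the adjusted p was 0.0577 and 0.072, and without miR-155KI NK1.1- replicate 2 or 3 it was 0.0742 and 0.0757. It was also lost with all 12 libraries in one fit (0.62, adjusted p = 0.0671) and when replicate 1 was the sole WT library, an analysis chosen after seeing the data (0.52, adjusted p = 0.19).

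*Ctla4* was scarce in every library. The WT NK1.1- libraries held it at 4.60, 10.9 and 9.80 CPM and the miR-155KI NK1.1- libraries at 2.98, 2.48 and 3.10 CPM, from 66 to 191 counts and from 33 to 58 counts. The groups did not overlap, and WT replicate 1 lay nearest to the miR-155KI libraries. The log2 fold change was -1.58 (SE 0.35, edgeR adjusted p = 0.0266). This call was lost when any NK1.1- library other than WT replicate 1 was left out: the adjusted p was 0.149 without WT replicate 2, 0.107 without WT replicate 3, and 0.104, 0.0742 and 0.0599 without miR-155KI replicate 1, 2 and 3. With all 12 libraries in one fit the adjusted p was 0.358. When replicate 1 was the sole WT library the log2 fold change was -0.68 (adjusted p = 0.673), and with the ratio of Y-linked RNA to *Xist* as a covariate it was -0.71 (adjusted p = 0.552).

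*Cd28* and *Cd200* did not pass the test in NK1.1- cells, although their groups did not overlap. *Cd28* was at 456, 482 and 462 CPM in WT and at 536, 541 and 546 CPM in miR-155KI libraries, a log2 fold change of 0.20 (SE 0.09, adjusted p = 0.288). *Cd200*, whose product signals through CD200R on myeloid cells, was at 32.4, 22.5 and 23.1 CPM in WT and at 32.4, 44.7 and 43.5 CPM in miR-155KI libraries. Here the highest WT library, replicate 1, and the lowest miR-155KI library nearly touched, and the log2 fold change was 0.61 (SE 0.18, adjusted p = 0.0839). Leaving out WT replicate 1 brought *Cd200* past the threshold (0.79, adjusted p = 0.0173), and so did DESeq2 (adjusted p = 0.0257) and the fit with no filter on low counts (adjusted p = 0.00365). In all, the groups did not overlap for 5 of the 8 genes tested, 4 higher and 1 lower in miR-155KI cells, against 23.1% of all genes tested (13.2% higher and 9.93% lower).

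*Tigit*, *Lag3* and *Cd160* overlapped between genotypes in the NK1.1- pool. *Tigit*, which competes with the costimulatory receptor CD226 for the ligand PVR, was at 3.42, 8.0 and 6.57 CPM in WT and 3.24, 2.33 and 4.65 CPM in miR-155KI libraries (log2 fold change -0.84, SE 0.38, adjusted p = 0.258). *Lag3*, which binds MHC class II, was at 15.1, 29.8 and 22.7 CPM in WT and 19.2, 15.2 and 19.2 CPM in miR-155KI libraries (-0.36, SE 0.23, adjusted p = 0.455). With replicate 1 as the sole WT library *Tigit* was at 0.00 and *Lag3* at 0.25. *Cd160* was at 70.1, 80.4 and 62.4 CPM in WT and 70.2, 87.6 and 68.4 CPM in miR-155KI libraries, a log2 fold change of 0.07 (SE 0.14, adjusted p = 0.858).

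**Figure D2:**
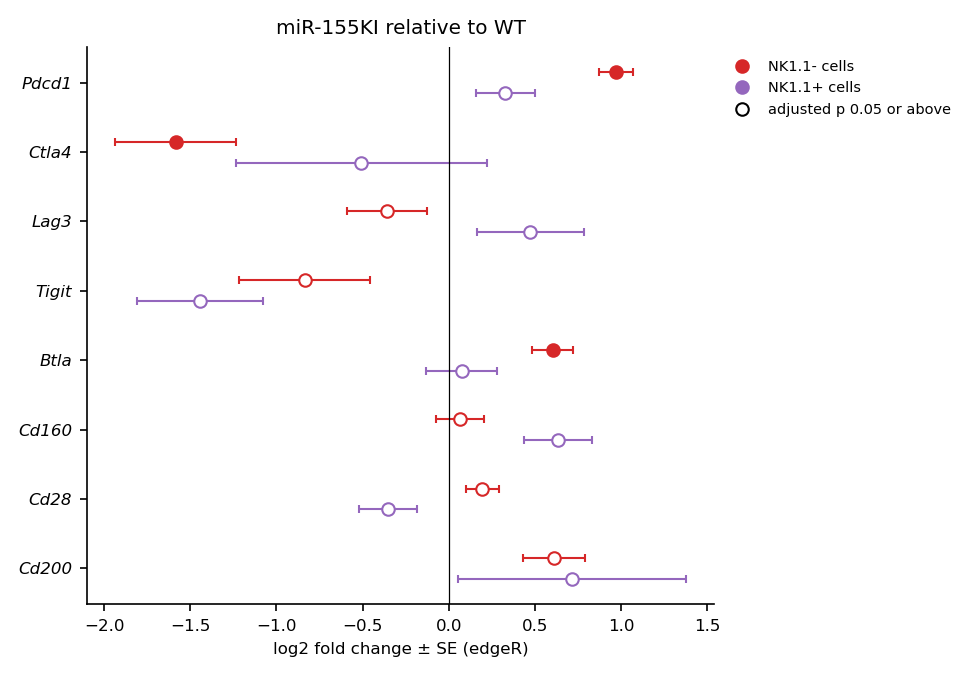
log2 fold change of miR-155KI relative to WT (horizontal axis, log2 scale; bars are ± SE from edgeR) for the 8 genes tested, in NK1.1- cells (red) and NK1.1+ cells (purple); filled points have an adjusted p under 0.05. Pdcd1, Btla and Ctla4 are filled in NK1.1- cells and no gene is filled in NK1.1+ cells.

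Within both WT groups *Ctla4* and *Tigit* were higher in the libraries with *Xist* RNA. In the NK1.1- pool WT replicates 2 and 3 held *Ctla4* at 10.9 and 9.80 CPM and replicate 1 at 4.60 CPM. In the NK1.1+ pool WT replicates 2 and 3 held it at 8.16 and 9.25 CPM and replicate 1 at 3.66 CPM. *Tigit* was likewise lower in replicate 1 of both WT groups, at 3.42 and 11.7 CPM, than in replicates 2 and 3, at 6.57 to 8.0 and 24.7 to 25.5 CPM. Each of these contrasts sets 1 library against 2. *Cd28* was also lowest in replicate 1 of both WT groups, at 456 and 342 CPM, and *Cd200* was highest there, at 32.4 and 4.02 CPM. WT NK1.1- replicate 1 was also the library with *Igkc* at 637 CPM. No miR-155KI library was rich in *Xist*, so sex-linked RNA and genotype can be compared only through the WT replicate 1 libraries. With the covariate, *Pdcd1* kept its call in NK1.1- cells (0.86, adjusted p = 0.0181) and *Btla* did not (0.54, adjusted p = 0.241). The part of sex in the differences of *Ctla4* and *Tigit* was not tested.

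**Figure D3:**
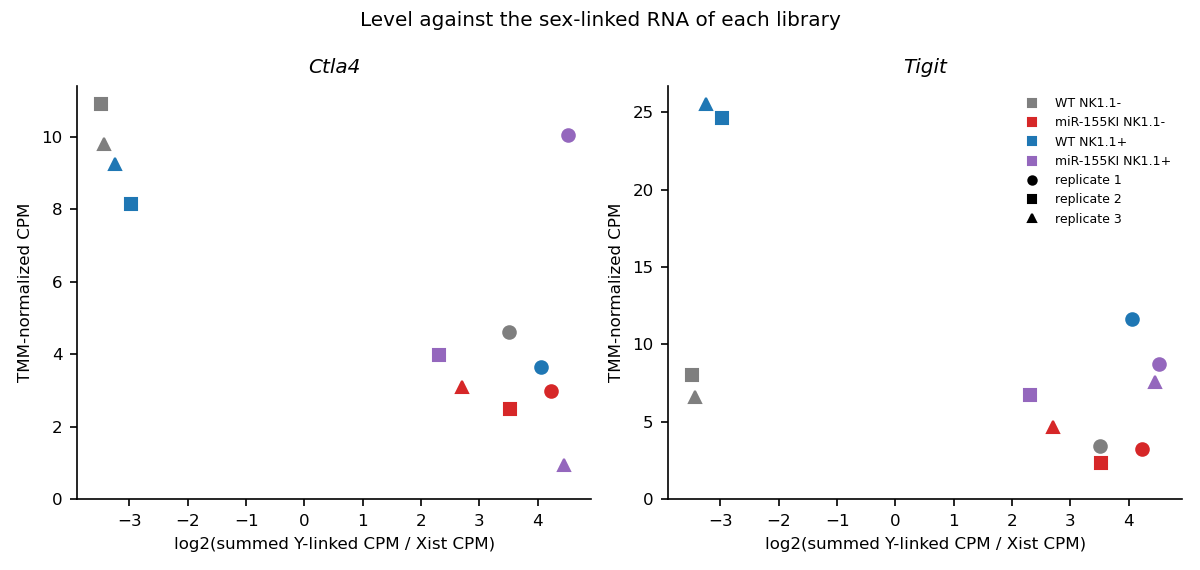
TMM-normalized CPM of Ctla4 (left) and Tigit (right) against the log2 ratio of summed Y-linked RNA to Xist (horizontal axes, log2 scale) in the 12 libraries; colours are groups and shapes replicates. The 4 WT libraries on the left have Ctla4 between 8.16 and 10.9 CPM, and of the 8 libraries on the right only miR-155KI NK1.1+ replicate 1 is in that range.

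In NK1.1+ cells none of the 8 genes tested passed the threshold in edgeR's test between genotypes, while *Tigit* and *Cd160*, 2 of the 8, had an unadjusted p below that level. Over all 12991 genes tested 0.0231% passed (3 genes), and 11.8% had an unadjusted p under 0.05. With DESeq2 1 gene passed (*Tigit*). The fit with no filter on low counts called 2 (*Tigit* and *Cd160*). The median log2 fold change of the 8 genes was 0.20, and that of all genes tested was 0.02. Of the myeloid and dendritic markers, 12 of 14 tested had a value above 0 in this comparison, with a median log2 fold change of 2.76, and 2 passed, out of the 3 genes that passed in all. Their summed level was 591 to 1393 CPM in miR-155KI and 299 to 402 CPM in WT NK1.1+ libraries. The double-positive thymocyte markers had a value above 0 for 9 of 9 tested, none of which passed, at summed levels of 73.6 to 332 CPM in miR-155KI and 45.1 to 56.6 CPM in WT. The part of these cells in the values that follow was not tested.

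*Tigit* was at 11.7, 24.7 and 25.5 CPM in the WT NK1.1+ libraries and at 8.74, 6.72 and 7.56 CPM in the miR-155KI NK1.1+ libraries. It was the only one of the 8 genes whose groups did not overlap in this pool, where 16.8% of all genes tested did not (8.47% higher and 8.33% lower). Its log2 fold change was -1.44 (SE 0.36, adjusted p = 0.245). Without WT NK1.1+ replicate 1 it was -1.72 and passed (adjusted p = 0.0487), DESeq2 gave an adjusted p of 0.00588, and with replicate 1 as the sole WT library it was -0.61 and did not pass.

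*Cd160*, a GPI-anchored or transmembrane receptor of NK cells and cytotoxic T cells that binds HVEM, was at 254, 188 and 167 CPM in WT and at 243, 330 and 382 CPM in miR-155KI NK1.1+ libraries. WT replicate 1 lay above miR-155KI replicate 1, so the groups overlapped. The log2 fold change was 0.63 (SE 0.20, adjusted p = 0.273), and it ranged from 0.32 to 0.91 over the 16 alternative analyses. *Pdcd1* was at 117, 122 and 161 CPM in WT and at 194, 160 and 154 CPM in miR-155KI libraries (0.33, SE 0.17, adjusted p = 0.477).

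*Cd28* was at 342, 417 and 503 CPM in WT and at 291, 326 and 383 CPM in miR-155KI NK1.1+ libraries (-0.35, SE 0.17, adjusted p = 0.441), again with overlapping groups. *Btla* was at 30.7, 34.0 and 29.1 CPM in WT and 28.9, 32.9 and 38.0 CPM in miR-155KI libraries (0.07, SE 0.21, adjusted p = 0.928). *Lag3* was at 12.1, 15.4 and 10.3 CPM and 21.2, 13.4 and 18.4 CPM in the same groups (0.47, SE 0.31, adjusted p = 0.583).

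*Ctla4* and *Cd200* varied most within the miR-155KI NK1.1+ group. *Ctla4* was at 10.1, 3.97 and 0.95 CPM there and at 3.66, 8.16 and 9.25 CPM in WT NK1.1+ libraries (log2 fold change -0.51, SE 0.73, adjusted p = 0.837). *Cd200* was at 12.1, 2.22 and 3.47 CPM there and at 4.02, 3.85 and 2.85 CPM in WT (0.72, SE 0.66, adjusted p = 0.719). For both genes the highest library was miR-155KI replicate 1, the library with *Foxp3*, *Dntt* and *Il2ra* RNA (*Il2ra* at 11.2 CPM). Regulatory T cells are known to express *Ctla4* at a high level. The summed level of the other 9 regulatory T cell markers was 1365 CPM in that library against 1291 to 1775 in the other 11, since most of them, such as *Ikzf2* and *Tnfrsf18*, were expressed in all libraries. Without that library the log2 fold change was -0.32 for *Cd200*, the opposite sign, and -1.504 for *Ctla4* (adjusted p = 0.37). Replicate 3 alone, a choice made after seeing the data, gave -2.88 for *Ctla4* (adjusted p = 0.094) and -0.04 for *Cd200*. The part of other cell types in these values was not tested.

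*Havcr2*, which encodes TIM-3, was near zero in 11 of 12 libraries. The WT NK1.1- libraries held 8, 3 and 0 counts, the miR-155KI NK1.1- libraries 5, 1 and 2, the WT NK1.1+ libraries 5, 4 and 4, and the miR-155KI NK1.1+ libraries 2, 71 and 1. The library with 71 counts, at 4.15 CPM, was miR-155KI NK1.1+ replicate 2, the same one in which *Csf1r*, *C1qa* (68.8 CPM) and *Adgre1* (22.6 CPM) were highest. *C1qa* was also higher in the other 2 libraries of that group (18.5 and 25.01 CPM) than in the remaining 9 (1.34 to 8.02 CPM), and *Havcr2* was not. Macrophages are known to express *Havcr2*. The part of macrophages in this value was not tested. In the other 11 libraries *Havcr2* was between 0.00 and 0.56 CPM, and *Havcr2* did not pass the filter on low counts in any of the 5 comparisons. Where it was tested between genotypes in NK1.1+ cells, by DESeq2 and without the filter, its adjusted p was 0.324 and 0.394, and with replicate 1 as the sole WT library its log2 fold change was 2.45 (adjusted p = 0.9998).

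**Figure D4:**
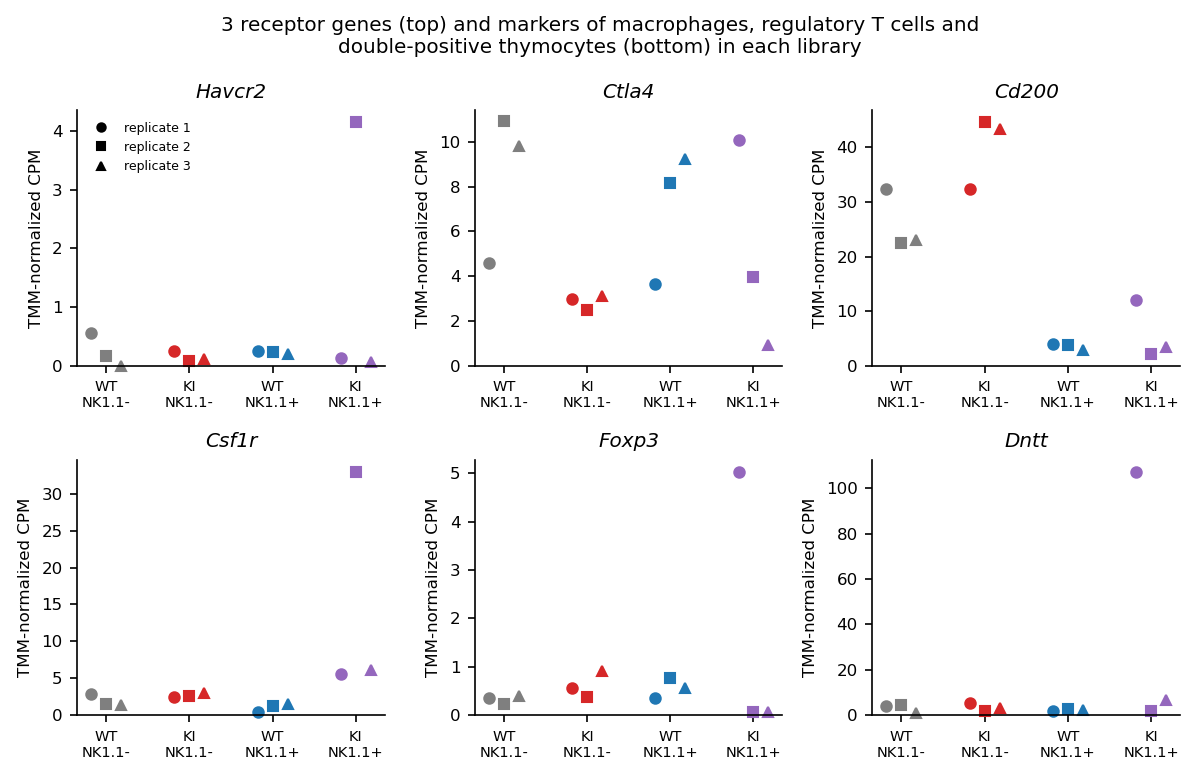
TMM-normalized CPM (vertical axes, linear) of Havcr2, Ctla4 and Cd200 (top) and of Csf1r, a macrophage marker, Foxp3, a regulatory T cell marker, and Dntt, a double-positive thymocyte marker (bottom), in each library by group; shapes are replicates. Havcr2 and Csf1r peak in miR-155KI NK1.1+ replicate 2, and Foxp3 and Dntt in replicate 1 of that group, which also has the highest Ctla4 and Cd200 of its group.

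Whether miR-155 acted differently on a gene in the 2 pools was asked with an interaction term over all 12 libraries. None of the 8 genes passed in edgeR, and 5 had an unadjusted p under 0.05, where 4 of all 14401 genes tested passed (0.0278%, of which 0.00694% higher and 0.0208% lower) and 8.1% had an unadjusted p under 0.05. The log2 values (genotype effect in NK1.1+ minus that in NK1.1- cells) were -0.64 for *Pdcd1* (SE 0.19, adjusted p = 0.337), -0.55 for *Cd28* (SE 0.19, adjusted p = 0.432) and -0.53 for *Btla* (SE 0.21, adjusted p = 0.538). They were 0.56 for *Cd160* (SE 0.26, adjusted p = 0.602) and 0.82 for *Lag3* (SE 0.38, adjusted p = 0.611). DESeq2 and the fit with no filter on low counts also called none of the 9 genes. The rise of *Pdcd1* and *Btla* in NK1.1- cells was thus not shown to differ from the values in NK1.1+ cells.

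Between the NK1.1+ and the NK1.1- pool most of the receptor genes differed. The pools also differ in their *i*NKT subsets. The words rose and fell below compare the pools and do not follow cells as they mature. In WT cells 6 of the 8 genes passed the test between NK1.1+ and NK1.1- cells, 2 higher and 4 lower in NK1.1+ cells, where 20.8% of all 13555 genes tested passed (9.89% higher and 10.9% lower). In miR-155KI cells 5 of 8 passed, 1 higher and 4 lower, where 14.1% of all 12942 genes tested passed (7.92% higher and 6.15% lower). In WT the groups did not overlap for 2 genes that were higher and 3 that were lower in NK1.1+ cells, where 39.0% of all genes tested did not (20.4% higher and 18.6% lower). In miR-155KI cells the same held for 2 and 4 genes, where 34.5% of all genes tested did not overlap (17.5% higher and 17.1% lower). An unadjusted p under 0.05 was found for 6 of 8 genes in each genotype, where 33.4% of all genes tested had one in WT and 27.4% in miR-155KI cells. The medians of the 8 genes were -0.47 in WT and -0.36 in miR-155KI cells, against 0.01 and 0.03 over all genes tested. Each of these comparisons uses the same libraries as the genotype comparisons, whose values are therefore not independent of them. Myeloid and dendritic markers moved between the miR-155KI pools too, where 7 of 14 tested passed with higher levels in NK1.1+ cells. Between the WT pools 2 of 14 passed, both higher in NK1.1+ cells, whereas 9 of the 14 had a value below 0. The median log2 fold change of the 14 markers between the WT pools was -0.86.

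*Cd160* in both genotypes and *Tigit* in WT passed with higher levels in NK1.1+ cells. In WT, *Cd160* rose from 62.4 to 80.4 CPM in NK1.1- libraries to 167 to 254 CPM in NK1.1+ libraries, a log2 fold change of 1.49 (SE 0.17, adjusted p = 1.6e-04). In miR-155KI cells it rose from 68.4 to 87.6 CPM to 243 to 382 CPM, a log2 fold change of 2.08 (SE 0.18, adjusted p = 8.5e-05). *Tigit* rose in WT from 3.42 to 8.0 CPM to 11.7 to 25.5 CPM (1.74, SE 0.37, adjusted p = 0.00769). In miR-155KI cells its groups did not overlap either, at 2.33 to 4.65 CPM and 6.72 to 8.74 CPM, but it did not pass edgeR's test (1.17, SE 0.46, adjusted p = 0.127) and passed DESeq2's (adjusted p = 0.0325).

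*Cd200* had the largest fall of the 8 genes in both genotypes. WT NK1.1- libraries held it at 22.5 to 32.4 CPM and WT NK1.1+ libraries at 2.85 to 4.02 CPM, a log2 fold change of -2.89 (SE 0.24, adjusted p = 1.9e-05). In miR-155KI cells the levels were 32.4 to 44.7 CPM and 2.22 to 12.1 CPM (-2.77, SE 0.54, adjusted p = 0.00838). *Pdcd1* fell in WT from 265 to 319 CPM to 117 to 161 CPM (-1.17, SE 0.15, adjusted p = 2.3e-04). In miR-155KI cells it fell from 560 to 614 CPM to 154 to 194 CPM (-1.78, SE 0.12, adjusted p = 2.2e-05). Neither gene's groups overlapped in either genotype.

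*Btla* also fell in both genotypes, with log2 fold changes of -0.64 in WT (SE 0.14, adjusted p = 0.0091) and -1.136 in miR-155KI cells (SE 0.16, adjusted p = 0.00157). The WT call was lost without WT NK1.1+ replicate 3 (adjusted p = 0.0513). *Cd28* passed in miR-155KI cells, with a log2 fold change of -0.70 (SE 0.12, adjusted p = 0.00423), and in WT cells it was at -0.18 (SE 0.14, adjusted p = 0.414). The difference between these *Cd28* values is the interaction given above, which did not pass.

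*Lag3* passed in WT cells, where the log2 fold change was -0.87 (SE 0.26, adjusted p = 0.0353), although WT NK1.1- replicate 1, at 15.1 CPM, lay below the highest NK1.1+ library, at 15.4 CPM. Its call was lost without WT NK1.1- replicate 2 (-0.63, adjusted p = 0.154) or 3 (adjusted p = 0.107) and without WT NK1.1+ replicate 1 (adjusted p = 0.0644) or 3 (adjusted p = 0.123). In miR-155KI cells *Lag3* was at -0.02 (SE 0.27, adjusted p = 0.973). *Ctla4* passed in neither genotype, at -0.30 in WT (SE 0.40, adjusted p = 0.646) and 0.80 in miR-155KI cells (SE 0.76, adjusted p = 0.558). Without miR-155KI NK1.1+ replicate 1 the value of *Ctla4* in miR-155KI cells was -0.21.

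**Figure D5:**
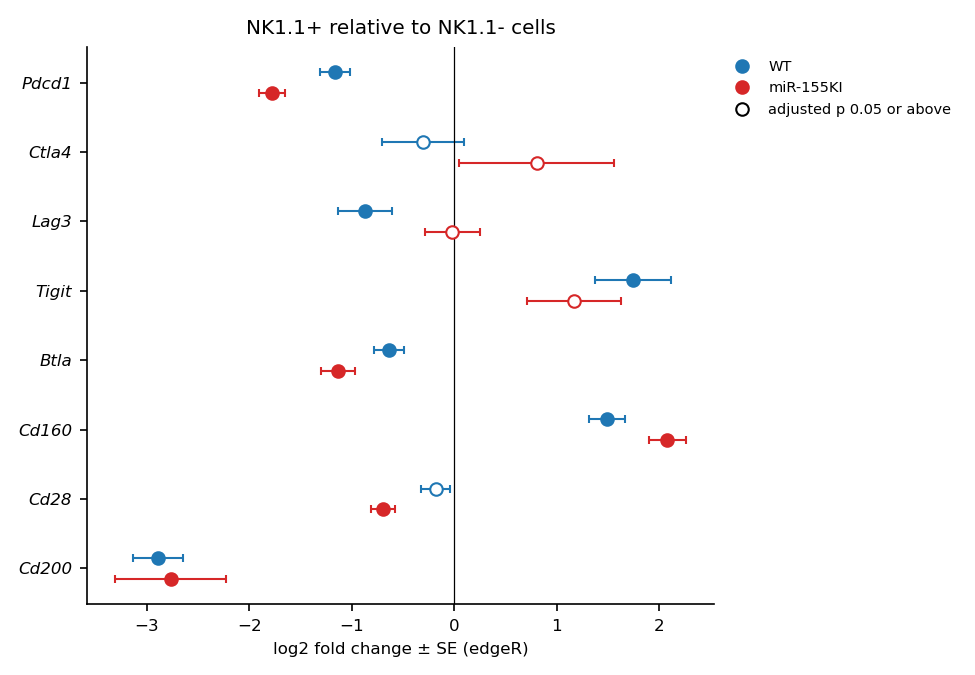
log2 fold change of NK1.1+ relative to NK1.1- cells (horizontal axis, log2 scale; bars are ± SE from edgeR) for the 8 genes tested, in WT (blue) and miR-155KI cells (red); filled points have an adjusted p under 0.05. Cd160 is filled on the right and Cd200, Pdcd1 and Btla on the left in both genotypes.

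Since CTLA-4 and CD28 bind the same ligands, their transcripts were set against each other within each library, where no scaling between libraries enters. There were 99.0, 44.2 and 47.1 counts of *Cd28* for each count of *Ctla4* in the WT NK1.1- libraries and 180, 218 and 176 in the miR-155KI NK1.1- libraries. The groups did not overlap, and the mean log2 ratio of *Ctla4* to *Cd28* was -5.88 ± 0.65 in WT and -7.57 ± 0.17 in miR-155KI cells (SD, n = 3). In NK1.1+ cells the values were 93.3, 51.1 and 54.4 in WT and 28.9, 82.1 and 406 in miR-155KI libraries, so that the miR-155KI libraries spanned the whole WT range. No test was made of this ratio, which carries no correction for the differing lengths of the transcripts.

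The pathway around the receptors was described through 5 gene lists, which were chosen with earlier results known. Some of their genes are also cell type markers used above, such as *Icos* (*i*NKT2), *Tbx21* (*i*NKT1) and *Tnfrsf18* (regulatory T cells). For these genes the list and marker counts are not separate findings. Their counts stand against the shares of all genes tested that passed, 3.44% (NK1.1-) and 0.0231% (NK1.1+) between genotypes, 20.8% between WT pools and 14.1% between miR-155KI pools. Their medians stand against all-gene medians of 0.00, 0.02, 0.01 and 0.03 in the same order. Of 14 genes for ligands of these receptors, 11 were tested in NK1.1- cells and 1 passed between genotypes. *Lgals3*, which encodes galectin-3, a reported LAG-3 ligand, was lower in miR-155KI cells, at 189.8 ± 11.2 CPM against 402 ± 35.9 in WT (SD, n = 3; log2 fold change -1.10, SE 0.11, adjusted p = 1.1e-04). *Pdcd1lg2*, for the PD-1 ligand PD-L2, was at 24.3 ± 3.29 CPM in miR-155KI and 18.1 ± 2.26 in WT cells (adjusted p = 0.223). *Cd274*, for PD-L1, was at 60.5 ± 9.06 and 95.1 ± 32.0 CPM (adjusted p = 0.235). *Tnfrsf14*, which encodes HVEM, the ligand of BTLA and CD160, was at 14.4 ± 2.63 and 10.6 ± 1.60 CPM (adjusted p = 0.325). None of the 10 ligand genes tested in NK1.1+ cells passed between genotypes. Between the pools 2 of 11 were higher and 2 lower in WT NK1.1+ cells, and 1 of 10 was higher in miR-155KI NK1.1+ cells. *Pvr*, for the ligand of TIGIT and CD226, was higher in NK1.1+ cells of WT mice, at 101 ± 6.44 against 44.6 ± 3.42 CPM (log2 fold change 1.15, adjusted p = 1.1e-04). The list had median log2 fold changes of -0.18 (NK1.1-) and -0.13 (NK1.1+) between genotypes, and -0.09 between WT pools and -0.13 between miR-155KI pools.

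Of the other costimulatory receptors, 11 of 12 listed genes were tested and 3 passed between genotypes in NK1.1- cells, 1 higher and 2 lower. *Icos*, from the CD28 family, was higher in miR-155KI cells, at 1095 ± 105 CPM against 742 ± 109.9 (0.54, SE 0.12, adjusted p = 0.0255). *Tnfrsf25*, which encodes DR3, was lower, at 21.03 ± 5.49 against 51.3 ± 3.30 CPM (-1.31, SE 0.18, adjusted p = 0.0015). *Cd226*, the costimulatory counterpart of *Tigit*, was also lower, at 26.2 ± 2.58 against 51.1 ± 8.56 CPM (-0.98, SE 0.16, adjusted p = 0.00427). *Tnfrsf9*, which encodes 4-1BB, did not pass, at 58.5 ± 0.553 and 42.5 ± 4.76 CPM (adjusted p = 0.0841). None of the 11 passed between genotypes in NK1.1+ cells. Between the pools 5 of 11 were higher and 3 lower in WT NK1.1+ cells, and 3 were higher and 1 lower in miR-155KI NK1.1+ cells. *Tnfrsf18*, for GITR, was at 306 ± 34.5 CPM in WT NK1.1+ and 132 ± 23.7 in WT NK1.1- cells (1.18, adjusted p = 2.5e-04). The list had median log2 fold changes of 0.35 (NK1.1-) and 0.07 (NK1.1+) between genotypes, and 0.45 between WT pools and 0.14 between miR-155KI pools.

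Of 18 other inhibitory receptors and adaptors, 14 were tested in NK1.1- cells and 2 passed between genotypes, both lower. *Pag1*, an adaptor that brings the kinase CSK to the membrane, was at 84.5 ± 2.98 CPM in miR-155KI and 148 ± 30.5 in WT cells (-0.83, SE 0.15, adjusted p = 0.00758). *Cd72* was at 8.67 ± 1.66 and 16.4 ± 2.71 CPM (-0.93, SE 0.22, adjusted p = 0.0387). *Entpd1*, for CD39, and *Vsir*, for VISTA, did not pass. *Entpd1* was at 9.71 ± 0.708 against 14.8 ± 1.62 CPM (adjusted p = 0.115) and *Vsir* at 117 ± 4.80 against 144 ± 2.91 CPM (adjusted p = 0.116). None of 16 passed between genotypes in NK1.1+ cells. Between the pools 6 of 16 were higher and 1 lower in WT NK1.1+ cells, and 8 were higher and 1 lower in miR-155KI NK1.1+ cells. *Entpd1* was at 87.4 ± 7.94 CPM in WT NK1.1+ and 14.8 ± 1.62 in WT NK1.1- cells (2.53, adjusted p = 4.7e-06), and *Cd101* was at 55.7 ± 5.67 and 14.2 ± 2.40 CPM (1.94, adjusted p = 2.9e-05). The list had median log2 fold changes of -0.46 (NK1.1-) and -0.06 (NK1.1+) between genotypes, and 0.23 between WT pools and 1.143 between miR-155KI pools.

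All 30 genes for proximal signalling of the receptors were tested, and 1 passed between genotypes in NK1.1- cells. *Sh2d1a*, which encodes the SLAM adaptor SAP, was higher in miR-155KI cells, at 151 ± 11.4 against 106 ± 14.7 CPM (0.49, SE 0.12, adjusted p = 0.0394). *Ptpn22*, for a phosphatase that acts on LCK and ZAP-70, was at 98.7 ± 7.78 and 141 ± 28.0 CPM (adjusted p = 0.0664). *Inpp5d*, which encodes SHIP1 and is a known target of miR-155, was at 184 ± 4.31 and 226 ± 16.2 CPM (adjusted p = 0.118), and *Inpp5b* was at 186 ± 12.6 and 150.4 ± 10.2 CPM (adjusted p = 0.176). None of the 30 passed between genotypes in NK1.1+ cells. Between the pools 6 were higher and none lower in WT NK1.1+ cells, and 4 were higher and 2 lower in miR-155KI NK1.1+ cells. *Pik3cd*, for the p110δ subunit of PI3 kinase, was at 729 ± 54.7 CPM in WT NK1.1+ and 439.6 ± 30.2 in WT NK1.1- cells (0.70, adjusted p = 0.00144). The list had median log2 fold changes of -0.02 (NK1.1-) and -0.12 (NK1.1+) between genotypes, and 0.19 between WT pools and 0.12 between miR-155KI pools. The 1 of 30 that passed between genotypes and the 6 of 30 that passed between WT pools were near the shares of all genes (3.44% and 20.8%).

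Of 24 transcription factors tied to inhibitory receptor genes, 23 were tested and 6 passed between genotypes in NK1.1- cells, 5 higher (*Tox2*, *Lef1*, *Bcl6*, *Id3* and *Egr2*) and 1 lower (*Tbx21*). *Tox2*, a relative of TOX, was at 131 ± 24.5 CPM in miR-155KI and 56.6 ± 5.25 in WT cells (1.19, SE 0.14, adjusted p = 6.4e-04). *Tbx21*, for T-bet, the factor that directs *i*NKT1 cells, was at 57.9 ± 12.4 against 133 ± 11.9 CPM (-1.23, SE 0.15, adjusted p = 7.8e-04). *Lef1* was at 799 ± 107 and 527 ± 60.4 CPM (0.58, adjusted p = 0.0175), and *Bcl6* at 17.0 ± 1.54 and 8.78 ± 1.38 CPM (0.94, adjusted p = 0.0238). None of the 23 passed between genotypes in NK1.1+ cells. Between the pools 6 were higher and 6 lower in WT NK1.1+ cells, and 5 were higher and 6 lower in miR-155KI NK1.1+ cells. In WT, *Tox2* was at 7.79 ± 0.907 CPM in NK1.1+ cells against 56.6 ± 5.25 in the NK1.1- pool (-2.89, adjusted p = 4.6e-06), and *Tcf7* at 110.4 ± 10.9 and 324 ± 13.5 CPM (-1.59, adjusted p = 1.3e-05). The list had median log2 fold changes of -0.19 (NK1.1-) and -0.23 (NK1.1+) between genotypes, and 0.15 between WT pools and -0.05 between miR-155KI pools. The first median lay below 0 although 5 of the 6 factors that passed were higher. No gene of the 5 lists passed the interaction test.

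The genes whose levels over the 4 group means were most like those of each receptor were found by the root mean square (RMS) difference of centred log2 CPM among 12551 named genes. Each point was the mean over 3 libraries of log2 CPM with a prior count of 2, which differs from the log of the mean CPM for scarce genes or uneven libraries. This is a description over 4 points with no test. By this measure *Pdcd1* was nearest to *Rgag4*, *Nostrin* and *B9d1* (RMS difference 0.04, 0.05 and 0.05). These 3 genes had means under 3 CPM, where the prior count weighs most, and the mean CPM of *Nostrin* did not follow *Pdcd1*, at 0.54 in WT NK1.1- and 0.88 in miR-155KI NK1.1+ cells. The nearest genes to *Btla* were *Cntln*, *Samhd1* and *Tstd3* (0.01, 0.02 and 0.03). Those to *Cd28* were *Zmynd8*, *Lbh* and *Plpp5* (0.01, 0.01 and 0.02), and those to *Ctla4* were *Ceacam16*, *Dusp4* and *Vwf* (0.05, 0.06 and 0.06). *Dusp4*, which encodes a MAP kinase phosphatase, was well expressed, with means of 20.7 CPM in WT and 6.54 CPM in miR-155KI NK1.1- cells. *Tigit* was nearest to *Fosl2*, *Litaf* and *P2ry10* (0.11, 0.12 and 0.12). *Lag3* was nearest to *Lsm2*, *Tubg1* and *Lsm7* (0.04, 0.05 and 0.05). The genes nearest to *Cd160* were *Fam117a*, *Lyn* and *Trav13n-1* (0.11, 0.12 and 0.13), and those nearest to *Cd200* were *Matk*, *Tgm3* and *Slc15a1* (0.09, 0.10 and 0.13). *Matk* was at 58.3 CPM in WT and 100.3 CPM in miR-155KI NK1.1- cells and at 9.60 and 13.8 CPM in the NK1.1+ cells of the same genotypes.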

How the data were processed

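The authors deposited raw counts per gene and a normalized CPM signal table, in which each value is the count times 1 factor per library. Reads were demultiplexed with bcl2fastq 2.17.1.14 and the build was GRCm38 (mm10), per the labels, and the sources used here name no counting program. The labels name a SMART-Seq kit and the paper's methods a TruSeq kit. Of the rows, 27 had become dates (0.249% of counts).

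Counts were fitted in R 4.3.3 with edgeR 4.0.16 (TMM, the default filter on low counts, robust quasi-likelihood test), each pair of groups alone and the interaction over all 12 libraries, on the whole table, with Benjamini-Hochberg adjustment over all genes tested and a threshold of 0.05. The script was tested on simulated data. Alternatives used DESeq2 1.42.0 and limma 3.58.1, the latter on log2(CPM + 1) and log2(CPM + 0.1).

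The genes, lists and markers were chosen with earlier results of these data known. Of each pathway list up to 4 genes with the smallest p between genotypes in NK1.1- cells and up to 2 with the smallest p between WT pools are named. *Csf1r*, *C1qa*, *Adgre1*, *Foxp3*, *Il2ra*, *Dntt* and *Igkc* were chosen from the marker lists after their values were seen, as were *Id3* and *Egr2*.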

Additional observations from a re-analysis of the deposited data

How the results depend on the processing

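The alternatives were DESeq2, RLE size factors, no filter on low counts, limma on the deposited CPM, all 12 libraries in one fit, the replicate block, the sex-linked covariate and each library left out in turn. Keeping replicate 1 as the sole WT library and miR-155KI NK1.1+ replicate 3 as the sole library of its group were chosen after seeing the data, and a lone library is assumed to vary like the others. Of 648 values over 40 combinations of gene and comparison, 593 kept their direction and side of the threshold, 20 lost the call, 8 gained it, and 27 changed sign, the smallest adjusted p among the last being 0.101.

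The count of receptor genes called between genotypes in NK1.1- cells was 3. It was 1 with all 12 libraries, 1 with the covariate, 1 with replicate 1 as the sole WT library, and 1 to 4 with a library left out. In NK1.1+ cells it was 0, against 1 in DESeq2, 2 without the filter, and 0 to 1 with a library left out. The cause of these shifts was not tested.

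Changes of sign in the log2 fold change between genotypes were as follows. In NK1.1- cells *Lag3* was 0.22 with the covariate and 0.25 with the sole WT library, *Tigit* 0.023 and 0.0035, and *Cd160* ranged from -0.066 to 0.18 with a library left out. In NK1.1+ cells *Ctla4* was 0.27 with the covariate and 0.44 with the sole WT library. With a library left out *Cd200* ranged from -0.32 to 1.098 and *Btla* from -0.024 to 0.19, and *Cd200* was -0.041 with replicate 3 alone. The log2 ratio of *Ctla4* to *Cd28*, miR-155KI minus WT, ranged from -1.52 to 0.39 with a library left out.

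Between the pools *Ctla4* ranged from -0.61 to 0.0020 in WT and from -0.21 to 1.29 in miR-155KI cells with a library left out, and *Lag3* from -0.18 to 0.14 in miR-155KI cells. With replicate 3 alone they were -1.61 and 0.015 in miR-155KI cells. In the interaction *Cd200* ranged from -0.93 to 0.48 with a library left out, was -0.30 and -0.28 in limma with a pseudocount of 1 and 0.1, and -0.68 with replicate 3 alone, where *Ctla4* was -1.33.

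Counts of all genes called moved more. In NK1.1- cells 457 became 953 in DESeq2, 1048 without the filter, 139 with all 12 libraries, 113 with the covariate, 157 with the sole WT library and 186 to 917 with a library left out. In NK1.1+ cells 3 became 316, 282, 60, 1, 1 and 1 to 125 in the same order, and 62 with replicate 3 alone. Between WT pools 2819 became 4266 with the covariate and 1832 to 3264 with a library left out. Between miR-155KI pools 1821 became 3928 with replicate 3 alone and 788 to 2542 with a library left out. For the interaction 4 became 140 in DESeq2, 162 without the filter, 7 with RLE, 1 with the sole WT library, 132 with replicate 3 alone and 3 to 46 with a library left out. In limma with a pseudocount of 1, 753 of 1871 genes called between miR-155KI pools were higher (40.2%), against 1025 of 1821 (56.3%).

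Same-numbered deviations from the group means correlated at r = 0.29, 0.24 and 0.099 between WT pools and at 0.12, 0.069 and 0.061 between miR-155KI pools. Not every value was over 0.1 and no label ties the numbers to mice, so the libraries were not treated as paired. As a hint from the data, each NK1.1- library correlated best with its own number in the other pool (other numbers in WT from -0.27 to 0.11), and WT replicates 1, 2 and 3 had the same sex-linked pattern in both pools. Between genotypes the replicate block joined WT and miR-155KI libraries of the same number, which no label ties to each other. Those pairs correlated at r = 0.056, 0.12 and 0.082 in NK1.1- cells and at -0.074, -0.0075 and 0.0022 in NK1.1+ cells. With the replicate block 737 genes were called between genotypes in NK1.1- cells, 7 in NK1.1+ cells, 4053 between WT pools, 1838 between miR-155KI pools and 23 for the interaction. The receptor genes called stayed at 3, 0, 6, 5 and 0, and the interaction value of *Cd200* was -0.24.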
